A study of Homo sapiens with 6 samples.

Results

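The genes described here are 28 genes of cholesterol synthesis, its control and cholesterol efflux, looked up by gene symbol among 16116 genes. They fall into enzymes of the mevalonate steps (7 genes), enzymes from squalene to cholesterol (11), regulators of the sterol-responsive transcription factor SREBP (4), sterol transport and esterification (2) and efflux with its LXR receptors (4). ABCG1, an efflux transporter, had no values under this symbol and was not analysed here. The other 27 genes all passed the filter on low counts and were tested among 12702 genes. Bulk RNA-seq compared KO HK-2 cells, labelled as knocked out for FAM134B, with WT HK-2 cells (3 libraries per genotype). The HK-2 line comes from immortalised epithelial cells of a human kidney's proximal tubule, and no treatment or time point is given for either group. The labels and series title name FAM134B, an endoplasmic reticulum (ER) membrane receptor for ER-phagy whose current symbol is RETREG1, whereas the design text names the autophagy receptor gene TAX1BP1. The labels do not say whether the KO libraries came from 1 edited clone or several, or whether libraries of a group came from separate cultures, so the p-values rest on library-to-library spread, which may be technical.

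Cells make cholesterol from acetyl-CoA through mevalonate, farnesyl diphosphate and squalene, and most of the enzymes sit in the ER membrane. When ER sterol is low, SCAP carries SREBP-2, the product of SREBF2, to the Golgi, where it is cleaved into a transcription factor that raises the synthesis genes. INSIG proteins hold SCAP in the ER when sterol is plentiful, and oxysterols activate the LXR receptors, which raise efflux transporters such as ABCA1.

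Libraries held 16797000 to 17127500 estimated reads. RETREG1 had 33, 27 and 28 reads in the KO libraries, against 72, 80 and 73 in the WT libraries, a log2 fold change of -1.33 (SE 0.18, edgeR adjusted p = 5.31e-07). TAX1BP1 averaged 151 ± 9.46 CPM (read counts scaled to TMM-adjusted library size) in KO libraries and 156 ± 6.30 CPM in WT libraries (SD, n = 3 each). Sums over markers, unlike the values of single genes, are CPM of total reads without TMM adjustment. Markers of renal tubular epithelium (6 of 6 tested) summed to 1189.9 to 1280 CPM in KO libraries and 1406 to 1519 CPM in WT libraries. Of these 6, 2 rose and 4 fell (edgeR). PAX8 averaged 561 CPM in KO and 458 CPM in WT libraries, and EPCAM 119 and 97.5 CPM. CDH6 averaged 24.0 CPM in KO and 148 CPM in WT libraries, KRT8 262 and 413 CPM, KRT18 293 and 337 CPM, and KRT19 0.0397 and 3.13 CPM. The part of these marker differences in the cholesterol gene values was not tested. Mature proximal tubule markers (1 of 6 tested) summed to 1.07 to 1.65 CPM in KO and 1.01 to 1.84 CPM in WT libraries, with LRP2, SLC34A1 and AQP1 at 0 to 3 reads per library. Summed fibroblast markers (1 of 5 tested) lay at 16.6 to 18.9 CPM in KO and 20.8 to 26.96 CPM in WT libraries, nearly all of it COL1A1. Leukocyte markers (1 of 3 tested, CD68) summed to 23.0 to 24.1 CPM in KO and 20.6 to 25.1 CPM in WT libraries. Endothelial and liver markers summed to at most 0.642 and 0.0589 CPM in KO libraries, and to at most 0.592 and 0.119 CPM in WT libraries.

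RefSeq promoter windows (250 bases before to 50 after a gene's start, build GRCh38.p14) were matched for 24 of the 28 genes, in 33 windows. They were searched on both strands for the sterol regulatory element TCACNCCAC bound by SREBP, the NF-Y box CCAAT and the Sp1 box GGGCGG. The exact sterol regulatory element was found in 1 of the 24 genes, SREBF2 itself, and in 1.49% of 10438 tested genes with a window. The NF-Y box was found in 18 of the 24 genes, against 43.3% of those 10438 genes, and the Sp1 box in 23 of the 24, against 77.6%. In all 35116 windows of this length the shares were 1.13%, 34.6% and 45.0%. A match is a description of these letters, and a window without one says nothing of the factor. Printed below, each 5′ to 3′ on the gene's strand with matches to any of the 3 motifs in capitals, are SREBF2 for its sterol regulatory element, INSIG1 and NSDHL as the lowest fold changes among the 27 genes, and TM7SF2 as the highest. Adjacent matches can share bases. The windows lie at chr22:41832855-41833154 (SREBF2), chr7:155297628-155297927 (INSIG1), chrX:152830813-152831112 (NSDHL) and chr11:65111622-65111921 (TM7SF2), all on the plus strand.
SREBF2: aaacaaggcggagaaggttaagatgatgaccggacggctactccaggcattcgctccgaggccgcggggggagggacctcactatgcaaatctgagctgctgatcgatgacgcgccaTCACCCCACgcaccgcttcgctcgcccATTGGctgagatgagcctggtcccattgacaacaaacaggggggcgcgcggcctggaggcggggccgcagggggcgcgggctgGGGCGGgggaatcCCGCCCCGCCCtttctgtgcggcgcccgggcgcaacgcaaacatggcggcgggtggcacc
INSIG1: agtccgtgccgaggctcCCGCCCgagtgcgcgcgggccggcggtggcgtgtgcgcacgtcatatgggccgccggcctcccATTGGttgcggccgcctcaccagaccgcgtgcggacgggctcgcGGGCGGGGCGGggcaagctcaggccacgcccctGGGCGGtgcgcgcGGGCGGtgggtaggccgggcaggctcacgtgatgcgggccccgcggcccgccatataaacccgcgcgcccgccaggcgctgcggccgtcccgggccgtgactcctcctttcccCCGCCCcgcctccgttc
NSDHL: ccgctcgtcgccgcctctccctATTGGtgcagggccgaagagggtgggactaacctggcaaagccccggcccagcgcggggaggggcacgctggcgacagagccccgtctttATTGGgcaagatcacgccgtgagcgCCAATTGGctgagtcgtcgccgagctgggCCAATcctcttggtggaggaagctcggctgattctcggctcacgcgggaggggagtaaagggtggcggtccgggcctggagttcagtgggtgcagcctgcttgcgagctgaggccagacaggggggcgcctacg
TM7SF2: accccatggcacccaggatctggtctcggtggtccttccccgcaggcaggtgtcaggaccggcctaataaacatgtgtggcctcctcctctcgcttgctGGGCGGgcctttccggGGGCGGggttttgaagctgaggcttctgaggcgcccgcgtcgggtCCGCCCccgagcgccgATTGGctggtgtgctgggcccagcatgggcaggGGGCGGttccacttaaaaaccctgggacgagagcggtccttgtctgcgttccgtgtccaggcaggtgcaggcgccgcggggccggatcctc
The sterol regulatory element of SREBF2 begins at base -133 from the start. NSDHL has 5 NF-Y boxes and no Sp1 box, whereas INSIG1 has 1 NF-Y box and 6 Sp1 boxes, and TM7SF2 has 1 and 4.

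The cholesterol genes that passed the test were mostly lower in KO cells, by modest amounts, and 7 of the 11 that fell encode enzymes of the squalene and sterol steps. At an adjusted p under 0.05 (edgeR quasi-likelihood test, Benjamini-Hochberg over all genes), 11 of 27 genes fell and 2 rose in KO. That is 40.7% lower and 7.41% higher, read against 18.1% and 18.7% of all 12702 genes tested. Together 48.1% of the 27 genes passed, against 36.8% of all tested genes. The groups did not overlap for 14 of the 27 (51.9%), against 46.3% of all tested genes, so separation in either direction was close to the background. Of these 14, all but LSS and TM7SF2 were lower in KO. Over all tested genes, 23% were separated with KO lower. Changes were small: 1 of the 13 called genes, TM7SF2, changed by at least 1.5-fold, against 27.6% of called genes in the whole table. The median log2 fold change of the 27 genes was -0.07 and that of all tested genes was -0.00059. Because these are bulk samples, fewer cells with a transcript and less of it per cell cannot be told apart.

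**Figure D1:**
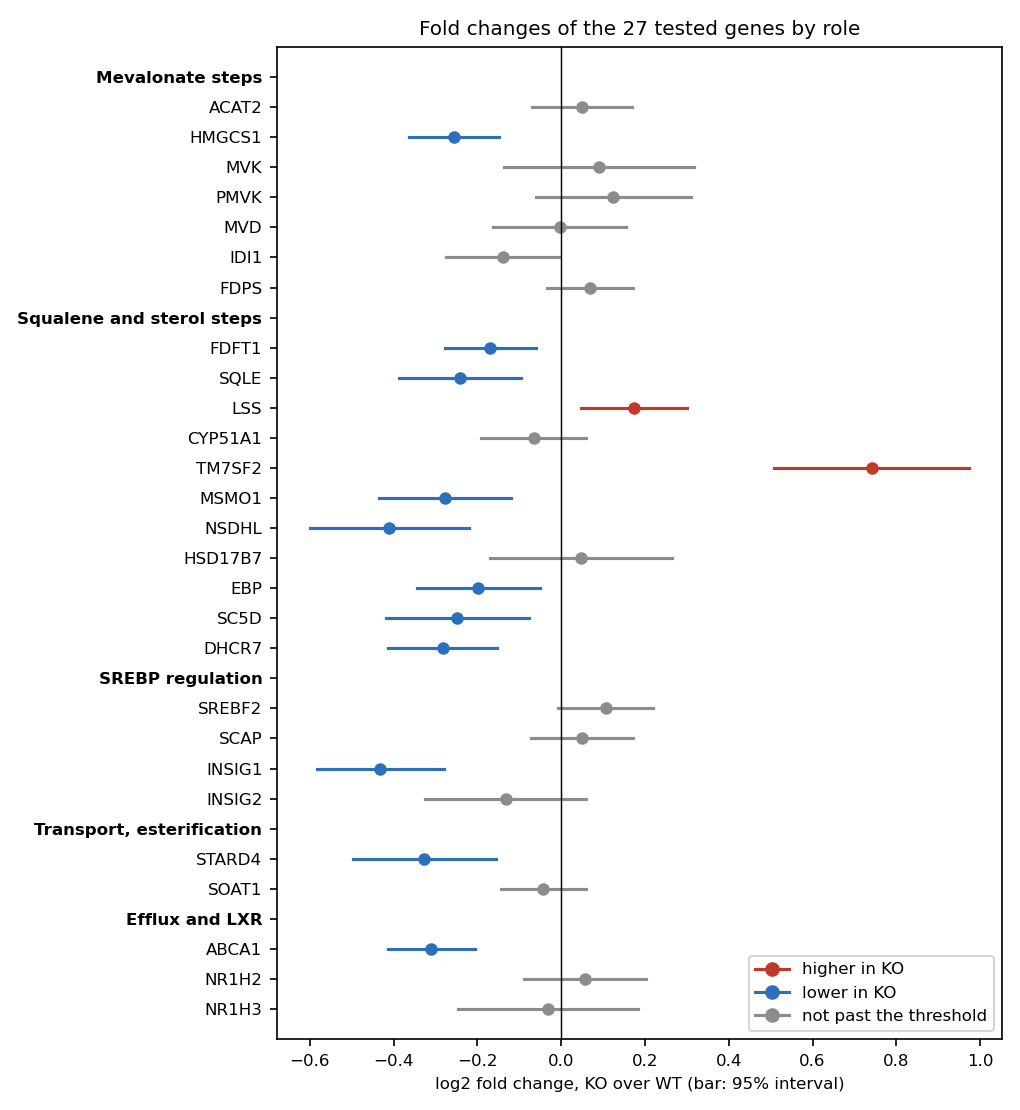
Log2 fold change of KO over WT (x axis) for the 27 tested genes, grouped by role, with 95% intervals from the edgeR fit as bars. Of 11 genes for squalene and sterol steps 7 are lower and 2 are higher in KO, whereas 6 of 7 mevalonate genes did not pass the threshold. Of all tested genes 18.1% were called lower and 18.7% higher.

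Per length, the mevalonate genes spanned the widest range of levels. FDPS, which makes farnesyl diphosphate, was the most abundant of all 27 genes in WT cells, with a deposited level of 338 ± 3.86 TPM (a level corrected for transcript length) in KO libraries and 329 ± 3.95 TPM in WT libraries. ACAT2, the cytosolic thiolase that joins acetyl-CoA units, stood at 102 ± 2.56 TPM in KO and 101 ± 5.58 TPM in WT libraries. MVK, mevalonate kinase, was the lowest of the group at 10.2 ± 0.693 TPM in KO and 9.29 ± 1.57 TPM in WT libraries (SD, n = 3 each).

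HMGCS1 was the 1 mevalonate gene of 7 that passed, against 36.8% of all tested genes. It encodes the synthase that condenses acetyl-CoA with acetoacetyl-CoA, and had 99.5, 92.6 and 95.3 CPM in KO libraries, against 116, 114 and 113 CPM in WT libraries. All KO libraries lay below all WT libraries, and HMGCS1 fell by 0.26 on the log2 scale (SE 0.053, edgeR adjusted p = 0.000291), or by 16.2%.

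The other 6 mevalonate genes did not pass. IDI1, the isomerase of isopentenyl diphosphate, came nearest, with 38.7, 39.1 and 35.99 CPM in KO libraries, against 39.7, 43.5 and 42.2 CPM in WT libraries. These ranges did not overlap but lay close together, and the log2 fold change was -0.14 (95% interval -0.28 to -0.0044, edgeR adjusted p = 0.0994). For the phosphorylating and decarboxylating enzymes, the log2 fold changes were 0.09 for MVK (interval -0.14 to 0.32), 0.12 for PMVK (-0.06 to 0.31) and -0.0033 for MVD (-0.16 to 0.16). ACAT2 had 0.05 (-0.07 to 0.17) and FDPS 0.07 (-0.03 to 0.17). The KO and WT libraries overlapped for these 5 genes, and the intervals leave room for changes of up to about those bounds. PMVK and FDPS lie on chromosome 1, where the median log2 fold change of 1287 tested genes was 0.12. The 24 nearest tested genes had medians of 0.17 around PMVK and 0.17 around FDPS, and the part of this regional shift in their values was not tested. ACAT2 overlaps TCP1 on the opposite strand and FDPS has several pseudogenes, so their reads are uncertain without a stated strand and counting rule.

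From squalene onward, 7 of 11 genes fell and 2 rose, against 18.1% lower and 18.7% higher of all tested genes. Several of these calls were lost with 1 library left out, as given below. FDFT1, squalene synthase, commits farnesyl diphosphate to sterols, and had 99.6, 102 and 104 CPM in KO libraries, against 111, 113 and 119 CPM in WT libraries. It fell by 0.17 on the log2 scale (SE 0.053, edgeR adjusted p = 0.0126), with no overlap. SQLE, squalene epoxidase and a flux-controlling oxygenase, had 40.4, 36.9 and 35.1 CPM in KO libraries, against 47.2, 44.9 and 40.8 CPM in WT libraries. KO replicate 1 and WT replicate 3 nearly touched, and SQLE fell by 0.24 (SE 0.071, adjusted p = 0.00798).

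The next gene in the pathway moved the other way. LSS, lanosterol synthase, closes the sterol rings, and had 62.5, 67.2 and 68.9 CPM in KO libraries, against 55.3, 58.8 and 62.0 CPM in WT libraries. KO replicate 1 lay just above WT replicate 3, and LSS rose by 0.17 on the log2 scale (SE 0.061, edgeR adjusted p = 0.0271). CYP51A1, which removes the C14 methyl group of lanosterol, had 69.7, 61.1 and 60.9 CPM in KO libraries, against 67.8, 66.1 and 66.7 CPM in WT libraries. KO replicate 1 was above all WT libraries and the other KO libraries were below them, and the log2 fold change was -0.07 (interval -0.19 to 0.06, adjusted p = 0.433).

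TM7SF2 had the largest change of the 27 genes. It encodes a C14 sterol reductase of the ER, and had 9.89, 9.58 and 10.2 CPM in KO libraries, against 5.69, 6.70 and 5.35 CPM in WT libraries. Every KO library was above every WT library, the log2 fold change was 0.74 (SE 0.113, edgeR adjusted p = 5.66e-06), and the rise was 67.1%. It was among the lowest-level genes per length, at 14.1 ± 0.461 TPM in KO and 8.59 ± 1.18 TPM in WT libraries. The 24 genes around it on chromosome 11 had a median of 0.03. LBR, a lamin B receptor with the same reductase activity, also rose, with 114, 110 and 102 CPM in KO libraries, against 95.5, 92.4 and 86.6 CPM in WT libraries. Its log2 fold change was 0.25 (SE 0.057, adjusted p = 0.000888), while its 24 neighbours on chromosome 1 had a median of 0.11, whose part in the rise was not tested.

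Of the genes that remove the C4 methyl groups, MSMO1 and NSDHL fell and HSD17B7 did not pass, while differences among them were not tested. MSMO1, the C4 methyl oxidase, had 37.4, 31.8 and 28.9 CPM in KO libraries, against 39.0, 41.0 and 38.8 CPM in WT libraries. It fell by 0.28 on the log2 scale (SE 0.077, edgeR adjusted p = 0.00545), with KO replicate 1 close to the WT libraries. NSDHL, the decarboxylating dehydrogenase, had 12.8, 14.6 and 12.5 CPM in KO libraries, against 17.02, 16.4 and 19.5 CPM in WT libraries. This was the largest fall among the enzymes, by 24.8% (log2 fold change -0.41, SE 0.092, adjusted p = 0.000784). HSD17B7, the ketoreductase of the same step, had 10.5, 9.58 and 8.85 CPM in KO libraries, against 8.39, 9.96 and 9.63 CPM in WT libraries. The groups overlapped, and the log2 fold change was 0.05 (interval -0.17 to 0.26). HSD17B7 has a pseudogene copy and lies on chromosome 1, where its 24 neighbours had a median of 0.11.

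All 3 genes for the last steps fell. EBP, the sterol isomerase, had 26.8, 30.0 and 30.7 CPM in KO libraries, against 32.2, 33.5 and 34.7 CPM in WT libraries, and fell by 0.20 on the log2 scale (SE 0.072, edgeR adjusted p = 0.0302). SC5D, the C5 desaturase, had 19.8, 20.8 and 17.2 CPM in KO libraries, against 21.8, 24.0 and 22.9 CPM in WT libraries. It fell by 0.25 (SE 0.083, adjusted p = 0.0198), beside a median of -0.17 for its 24 neighbours on chromosome 11, whose part was not tested. DHCR7, which makes cholesterol from 7-dehydrocholesterol, had 62.7, 63.5 and 66.3 CPM in KO libraries, against 69.7, 82.0 and 82.5 CPM in WT libraries. WT replicate 1 stood below the other WT libraries and above all KO libraries, and DHCR7 fell by 0.28 (SE 0.063, adjusted p = 0.000753).

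**Figure D2:**
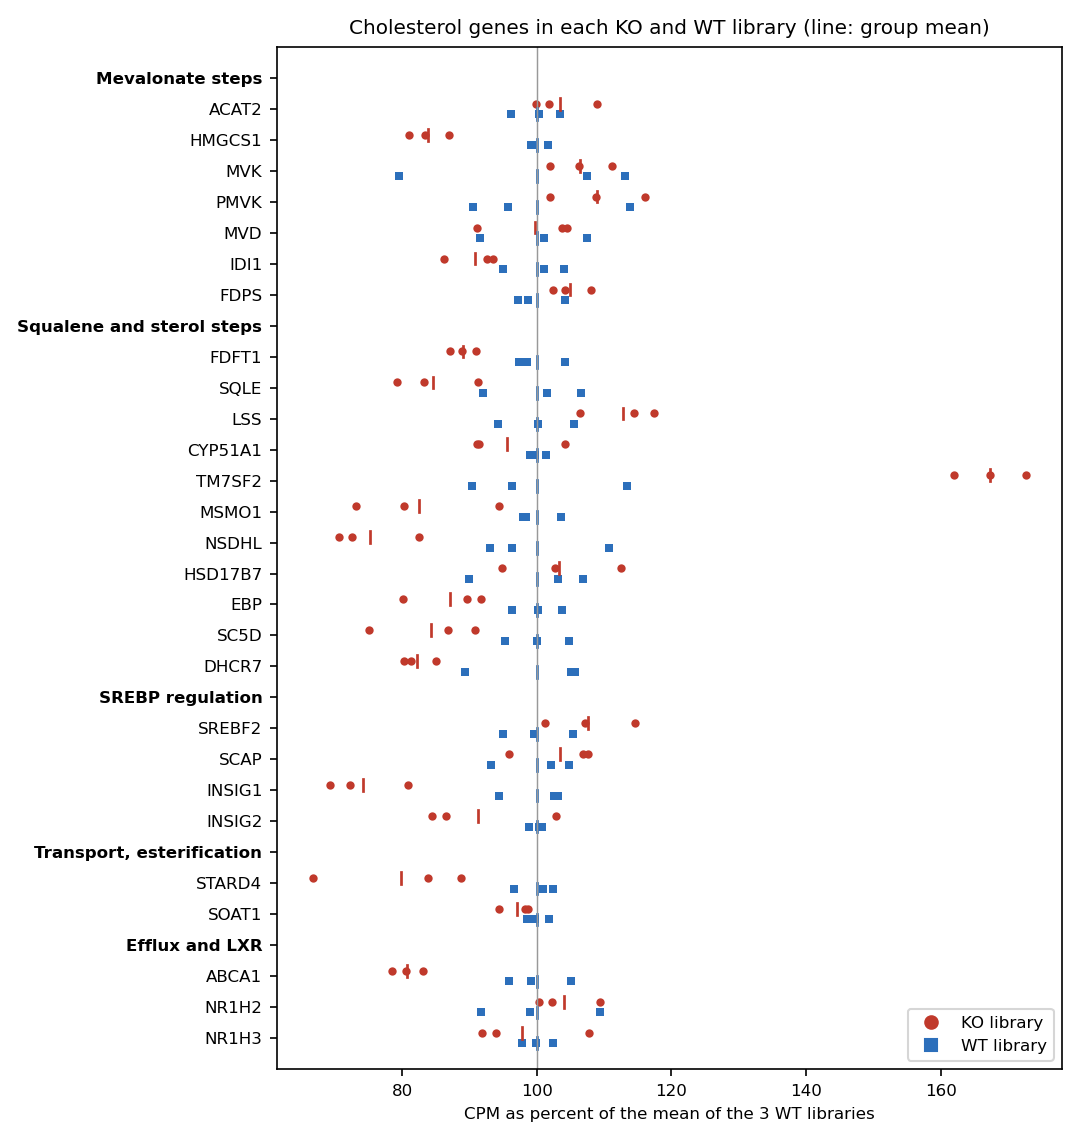
CPM of each KO library (circles) and WT library (squares) as percent of the WT mean (x axis) for the 27 genes, with short lines at group means. TM7SF2 stands far to the right in all KO libraries, INSIG1, NSDHL and STARD4 lie farthest to the left, and most mevalonate genes overlap.

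Summed over genes, the sterol end of the pathway was lower and the mevalonate end was level. The 11 genes for squalene and sterol steps summed to 407, 394 and 384 TPM in KO libraries, against 436, 461 and 450 TPM in WT libraries. All KO sums were below all WT sums, and the mean sum fell by 12.02%. The 7 mevalonate genes summed to 607, 599 and 609 TPM in KO libraries, against 599.9, 604 and 607 TPM in WT libraries. These sums overlapped, and FDPS, at 334 to 341 TPM in KO and 326 to 333 TPM in WT libraries, makes up most of them. The median log2 fold changes were -0.20 for the squalene and sterol genes and 0.05 for the mevalonate genes. These sums are descriptions of lists chosen with earlier results known, and the difference between the 2 lists was not tested.

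**Figure D3:**
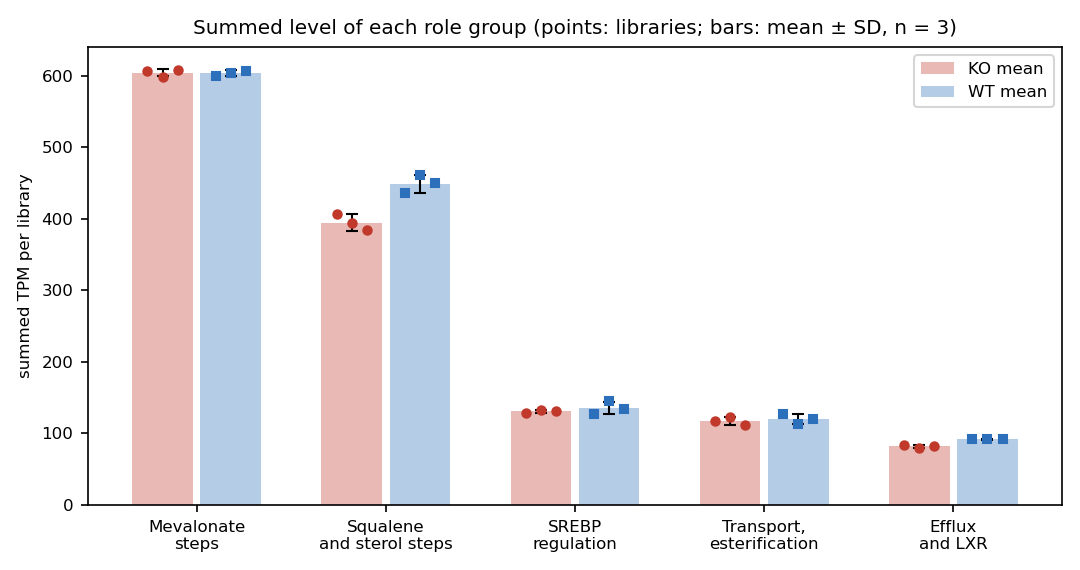
Summed TPM per library (y axis) of each role group, with KO bars left of WT bars, points for libraries and error bars for SD (n = 3). KO and WT points are separated for the squalene and sterol genes (395 and 449 TPM on average) and for efflux and LXR genes (81.9 and 92.1 TPM). They overlap for the other groups. The separation of the efflux and LXR sums lies with ABCA1 (37.1 TPM in KO and 47.1 TPM in WT libraries), as NR1H2 and NR1H3 overlapped.

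Among SREBP regulators, INSIG1 fell and the other 3 did not pass. INSIG1, an ER retention protein for SCAP that is itself a target of SREBP, had 25.6, 28.7 and 24.6 CPM in KO libraries, against 33.4, 36.4 and 36.6 CPM in WT libraries. All KO libraries lay below all WT libraries, and the fall of 25.9% was the largest among the 27 genes (log2 fold change -0.43, SE 0.074, edgeR adjusted p = 2.77e-05). INSIG2, the related retention protein, had 14.1, 11.6 and 11.9 CPM in KO libraries, against 13.8, 13.6 and 13.8 CPM in WT libraries. KO replicate 1 was above every WT library and the other KO libraries were below, and the log2 fold change was -0.13 (interval -0.32 to 0.06, adjusted p = 0.289).

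The carrier and the transcription factor did not pass, with KO means slightly above the WT means. SREBF2 had 156, 165 and 177 CPM in KO libraries, against 147, 163 and 154 CPM in WT libraries, a log2 fold change of 0.11 (interval -0.0067 to 0.22, edgeR adjusted p = 0.136). The groups overlapped, through KO replicate 1 and WT replicate 2. Without KO replicate 1 the log2 fold change of SREBF2 was 0.15 and passed (edgeR adjusted p = 0.0256). With any other library left out it did not pass. SCAP had 88.9, 99.8 and 99.1 CPM in KO libraries, against 86.4, 97.1 and 94.7 CPM in WT libraries, with a log2 fold change of 0.05 (interval -0.07 to 0.17). Per length, SCAP stood at 1.63, 1.77 and 1.95 times the sum of INSIG1 and INSIG2 TPM in KO libraries, against 1.31, 1.39 and 1.35 times in WT libraries. This ratio, chosen after the values were seen, did not overlap between the groups, but it adds no separate result. Its separation lies mainly with INSIG1 (18.1 TPM in KO and 24.9 TPM in WT libraries on average), whose fall is given above. SCAP averaged 44.6 TPM in KO and 44.2 TPM in WT libraries, and both SCAP and INSIG2 overlapped between groups. The ratio is one of transcripts, not of proteins.

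STARD4, which carries sterol between membranes in the cytosol and is an SREBP target, fell, whereas SOAT1 did not pass. STARD4 had 29.1, 27.5 and 21.9 CPM in KO libraries, against 31.7, 33.1 and 33.6 CPM in WT libraries. KO replicate 3 was the lowest, and STARD4 fell by 0.33 on the log2 scale (SE 0.083, edgeR adjusted p = 0.0025), or by 20.3%. SOAT1, which esterifies cholesterol for storage in droplets, was the third most abundant of the 27 genes per length in WT cells, at 104 ± 4.01 TPM in KO and 102 ± 7.90 TPM in WT libraries. Its log2 fold change was -0.04 (interval -0.14 to 0.06, adjusted p = 0.535), beside a median of 0.08 for its 24 neighbours on chromosome 1.

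On the efflux side ABCA1 fell and the LXR receptor genes did not pass. ABCA1, which loads cholesterol onto apolipoproteins, had 215, 209 and 203 CPM in KO libraries, against 272, 248 and 256 CPM in WT libraries. The groups were well separated, and ABCA1 fell by 0.31 on the log2 scale (SE 0.050, edgeR adjusted p = 1.44e-05), or by 19.3%. NR1H2, encoding LXR beta, had 37.2, 37.9 and 40.5 CPM in KO libraries, against 34.0, 36.7 and 40.5 CPM in WT libraries, a log2 fold change of 0.06 (interval -0.09 to 0.20). NR1H3, encoding LXR alpha, had 8.34, 8.15 and 9.56 CPM in KO libraries, against 8.86, 8.68 and 9.09 CPM in WT libraries, a log2 fold change of -0.03 (interval -0.25 to 0.18). Both receptors overlapped between groups. Per length NR1H2 was higher than NR1H3, at 32.9 ± 0.870 and 11.9 ± 0.947 TPM in KO libraries and 32.3 ± 2.43 and 12.7 ± 0.0473 TPM in WT libraries.

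Of the 13 calls, 8 held when any 1 library was left out and 5 did not (edgeR adjusted p unless another tool is named). FDFT1 missed the threshold without KO replicate 2 (0.0613) or WT replicate 3 (0.0799), and SQLE without WT replicate 1 (0.0532). SQLE and MSMO1 also missed it in limma on log2(TPM + 1) without a filter (0.0914 and 0.0832). LSS missed it without KO replicate 2 (0.104), KO replicate 3 (0.0922), WT replicate 1 (0.131) or WT replicate 2 (0.0720), in DESeq2 (0.0544), and in all 4 limma settings (0.158 to 0.199). EBP missed it without KO replicate 1 (0.132), KO replicate 2 (0.0567), WT replicate 2 (0.0772) or WT replicate 3 (0.107), in DESeq2 (0.0915), and with genes of chromosomes 1, 4 and 6 other than members left out (0.0621), a setting chosen after seeing the data. SC5D missed it without KO replicate 3 (0.134) or WT replicate 2 (0.0972), in DESeq2 (0.0754), and in all 4 limma settings (0.0637 to 0.121). The genes around the 13 called genes had neighbourhood medians between -0.17 (SC5D) and 0.06 (HMGCS1).

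The transcript table gave little further resolution. Of 145 RefSeq transcripts listed for the 27 genes, 95 were tested; 0 were higher and 1 was lower in KO (edgeR quasi-likelihood test over 44030 transcripts, of which 2.13% were called), with 15 at an unadjusted p under 0.05. The call was NM_005502, which held all ABCA1 reads, at 3511 reads in KO and 4405 in WT libraries on average (log2 fold change -0.32, adjusted p = 0.0369). It was lost, leaving 0 calls, without any 1 of the 6 libraries. NM_139164 held 68.9% of STARD4 reads in KO and 77.0% in WT libraries, and fell short of the threshold (adjusted p = 0.298). NM_001146152 held 23.7% of CYP51A1 reads in KO and 30.1% in WT libraries (adjusted p = 0.393).

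Genes around the core pathway were called in both directions, as were 18.7% (higher) and 18.1% (lower) of all 12702 tested genes. For lipoprotein uptake and lysosomal egress, 12 of 13 genes were tested, of which 3 rose and 5 fell, with a median log2 fold change of -0.07. VLDLR, a lipoprotein receptor, had 76.2, 73.4 and 69.9 CPM in KO libraries, against 114, 110 and 109 CPM in WT libraries (log2 fold change -0.60, SE 0.055, edgeR adjusted p = 7.13e-10). SCARB1, the high-density lipoprotein receptor, had 123, 136 and 148 CPM in KO libraries, against 185, 198 and 194 CPM in WT libraries (-0.50, SE 0.058, adjusted p = 5.57e-08). Both receptors fell by more than any of the 27 genes. NPC2, which hands lysosomal cholesterol to the membrane, fell by 0.39 (adjusted p = 2.57e-06). LRPAP1, a chaperone of lipoprotein receptors, rose by 0.36 (adjusted p = 3.39e-06), but the 24 genes around it on chromosome 4 had a median of 0.51, whose part in the rise was not tested.

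Of 14 genes for SREBP processing and sterol-regulated degradation, 0 rose and 5 fell in edgeR, with a median of -0.02 over all 14. Over all tested genes 36.8% were called, 18.7% higher and 18.1% lower. The number called was thus near the background, while all of the calls were falls, a direction that was not tested. SPRING1, which SREBP cleavage needs, had 72.8, 70.0 and 71.5 CPM in KO libraries, against 86.1, 83.9 and 87.3 CPM in WT libraries (log2 fold change -0.26, adjusted p = 0.000282). RNF145, a ubiquitin ligase that acts on SCAP, fell by 0.27 (adjusted p = 0.000341), and PGRMC1, a haem-binding partner of sterol enzymes, fell by 0.28 (adjusted p = 0.000194). TRIM21, a ubiquitin ligase better known as an antibody receptor, fell by 0.54 (adjusted p = 8.11e-05). PAQR3, a Golgi tether for SCAP named after its value was seen, fell by 0.25 (edgeR adjusted p = 0.0165). Its groups overlapped, with KO replicate 1 at 33.1 CPM and WT replicate 3 at 32.6 CPM.

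Fatty acid and cofactor genes that SREBP also controls had 3 higher and 3 lower of 13, against 18.7% higher and 18.1% lower of all tested genes, and a median of 0.06. SCD, the stearoyl-CoA desaturase, had 256, 257 and 249 CPM in KO libraries, against 302, 312 and 293 CPM in WT libraries (log2 fold change -0.25, edgeR adjusted p = 0.000130). FASN, fatty acid synthase, rose by 0.18 (edgeR adjusted p = 0.0188) and LPIN1, a phosphatidate phosphatase, by 0.17 (adjusted p = 0.0133). The groups overlapped for FASN, with KO replicate 1 at 480 CPM and WT replicates 2 and 3 at 489 and 482 CPM. ELOVL6, a fatty acid elongase, averaged 7.61 ± 0.495 CPM in KO and 1.06 ± 0.321 CPM in WT libraries (log2 fold change 2.84, adjusted p = 5.51e-13).

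Of 19 genes for sterol transfer, esters and oxysterols, 15 were tested, of which 3 rose and 6 fell, against 18.7% and 18.1% of all tested genes, with a median of 0.07. CYP27A1, the mitochondrial sterol 27-hydroxylase, had 10.8, 11.2 and 11.1 CPM in KO libraries, against 1.47, 0.758 and 1.31 CPM in WT libraries. This was the largest change among the sterol genes examined, a log2 fold change of 3.22 (SE 0.164, edgeR adjusted p = 3.79e-15), and its 24 neighbours on chromosome 2 had a median of 0.06. NCEH1, a cholesteryl ester hydrolase, fell by 0.32 (adjusted p = 1.66e-05), and OSBPL8, a lipid transfer protein at ER contacts, by 0.25 (adjusted p = 0.00360).

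LXR partners and targets had 4 higher and 3 lower of 10 tested, against 18.7% and 18.1% of all tested genes, with a median of 0.12. These counts include SCD, which fell and is also in the fatty acid list, and MYLIP, which rose and is also in the uptake list. SMPDL3A, an LXR target in human cells, had 10.97, 12.8 and 10.9 CPM in KO libraries, against 6.04, 5.48 and 4.87 CPM in WT libraries (log2 fold change 1.08, edgeR adjusted p = 1.27e-08). RXRB, a partner receptor of LXR, and MYLIP, a ubiquitin ligase that LXR induces, rose by 0.70 and 0.48 (adjusted p = 1.90e-09 and 2.37e-05). The 24 neighbours of RXRB and MYLIP on chromosome 6 had medians of 0.58 and 0.44, whose part in these rises was not tested, whereas those of SMPDL3A had one of 0.06. ABCB1, a multidrug efflux pump, fell by 0.33 (adjusted p = 1.15e-05).

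Isoprenoid branch genes had 1 higher and 1 lower of 13 tested, against 36.8% called of all tested genes, and a median of 0.02. NUS1, a subunit of the enzyme that makes dolichol precursors, had 115, 106 and 100.3 CPM in KO libraries, against 129, 131 and 122 CPM in WT libraries (log2 fold change -0.25, edgeR adjusted p = 0.00102).

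**Figure D4:**
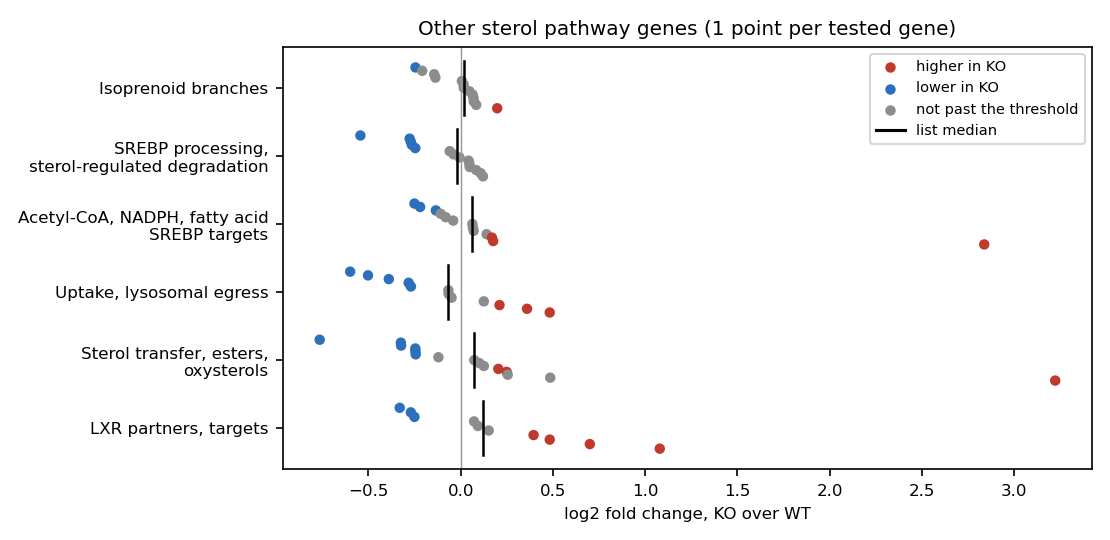
Log2 fold change of KO over WT (x axis) for each tested gene of 6 further sterol pathway lists, with 1 point per gene, coloured by call, and a black line at each list median. ELOVL6 (2.84) and CYP27A1 (3.22) stand far to the right, and list medians lie between -0.07 and 0.12.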

How the data were processed

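Values are those the authors deposited for 6 bulk RNA-seq libraries. The submitters' processing notes name build GRCh37 and the tools HISAT2 2.0.1, Cuffdiff 2.2.1, cutadapt 1.9.1, FastQC 0.10.1 and bcl2fastq 2.17.1.14. The counter and the strand setting: not given in the sources used here. The deposited estimated counts (13.0% to 14.0% not whole) were rounded. Deposited TPM, used for levels between genes, and deposited FPKM entered limma as alternatives (log2 of value plus pseudocount).

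Genes passing filterByExpr (minimum count 10, minimum total 15) were fitted for KO against WT with edgeR 4.0.16 (R 4.3.3), with TMM scaling, a robust quasi-likelihood test and Benjamini-Hochberg adjustment over all 12702 genes. Each SE was obtained by dividing the size of the log2 fold change by the root of its F statistic. Alternatives used limma 3.58.1, DESeq2 1.42.0, other scalings and filters, a replicate block and libraries left out. The fit was first tested on simulated data. Neighbours are up to 12 tested genes on either side in the GRCh38.p14 gene order. Libraries of a group differed by more than sampling noise (chi-square per degree of freedom 2.02 to 6.01).

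Members and lists were chosen with earlier results of these data known. All 27 members were named, and up to 4 called genes of every other list by adjusted p, of which 1 is not reported here. PAQR3 and the ratio of SCAP to INSIG were picked with their values in view, as were 3 of the 4 printed promoters.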

Additional observations from a re-analysis of the deposited data

How the results depend on the processing

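Of the 27 genes, 8 to 12 were called lower under every setting run, against 11, and 1 was called higher (not 2) in DESeq2 and in all 4 limma settings, where LSS missed the threshold. SC5D, called lower, missed it in the same 5 settings. Leaving out 1 library at a time gave 9 to 10 lower and 1 to 3 higher, 1964 to 2445 genes higher and 1837 to 2327 lower over the whole table, and 0 to 0 member transcripts called. Genes not called changed sign in some settings: MVD had 0.00091 with no filter and 0.020 with scaling and testing without genes of chromosomes 1, 4 and 6 other than members, a setting chosen after seeing the data. HSD17B7 had -0.053, -0.040, -0.056 and -0.053, and SOAT1 0.030, 0.042, 0.030 and 0.030, in limma on log2(TPM + 1), log2(FPKM + 1), log2(TPM + 0.1) and log2(TPM + 1) without a filter. With 1 library left out, log2 fold changes ranged from -0.051 to 0.19 for MVK, -0.063 to 0.059 for MVD, -0.024 to 0.11 for HSD17B7, -0.0022 to 0.12 for NR1H2 and -0.11 to 0.013 for NR1H3.

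In the same order of limma settings, the median of all members was -0.10, -0.091, -0.11 and -0.10. In the TPM settings, the median of the squalene and sterol genes was -0.22, -0.22 and -0.22, and that of SREBP regulators -0.069, -0.079 and -0.069. Without chromosomes 1, 4 and 6 the squalene and sterol median was -0.17 and that of all members -0.041. With 1 library left out, medians ranged from -0.051 to 0.062 (mevalonate), -0.22 to -0.15 (squalene and sterol), -0.065 to -0.029 (SREBP regulators), -0.23 to -0.12 (transport and esterification), -0.11 to 0.013 (efflux and LXR) and -0.13 to -0.054 (all members). Over all genes tested, the median was -0.027, -0.015, -0.029 and -0.027 in the 4 limma settings, against -0.00059 in the main fit. It was 0.0015 without chromosomes 1, 4 and 6. The cause of the shifts in the member medians was not tested.

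Same-numbered KO and WT libraries had correlated deviations of 0.22, 0.02 and 0.16, against -0.20 to 0.064 for libraries of unlike number. Each KO library correlated best with the WT library of its own number, but WT replicate 2 correlated best with KO replicate 3. The labels give no pairing, so the main fit used none, and whether the numbers pair libraries is not settled by these values. With a replicate block 12 members were lower and 3 higher (15 called, including the 13), 3013 genes were higher and 2934 lower in all, IDI1 (adjusted p = 0.0321) and SREBF2 (0.0193) passed, and 0 member transcripts were called. Counting error at these depths limits the low genes most: 3 reads correspond to 0.175 to 0.179 CPM of total reads, without TMM adjustment.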
